A study of Mus musculus with 6 samples.

Results

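The troponins and tropomyosins of skeletal muscle were followed as 9 genes: the slow troponins Tnnt1, Tnni1 and Tnnc1, the fast troponins Tnnt3, Tnni2 and Tnnc2, and the tropomyosins Tpm1, Tpm2 and Tpm3. They were chosen by gene symbol from 23238 symbols listed in each library, with earlier results of these data known. Each stood on 1 line of the count table. The samples were gastrocnemius muscles of C57/BL6J wild-type mice aged 26 months that were dosed by mouth for 30 days. A first group of 3 libraries came from mice given vehicle, which was saline with 5% DMSO, and a second group of 3 from mice given farnesol at 350 mg/kg. Farnesol is an isoprenoid alcohol related to the farnesyl group that cells attach to some proteins. All mice were old, and young muscle was not analysed here. The labels call the libraries biological replicates without saying that each came from its own mouse, so the tests measure the spread between these libraries.

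Troponin and tropomyosin make the calcium switch of the thin filament. Tropomyosin lies along actin and covers the sites that myosin heads bind. Troponin T anchors the complex to tropomyosin, troponin I inhibits the filament, and troponin C binds calcium and lifts that inhibition. Slow (type I) and fast (type II) fibres use different genes for each troponin subunit, and slow troponin C, Tnnc1, is also the cardiac form. Among tropomyosins, Tpm1 encodes the alpha form of fast fibres, Tpm3 the alpha form of slow fibres, and Tpm2 the beta form, which occurs in both. Tpm1, Tpm2 and Tpm3 also make shorter forms in other cell types, and counts per gene do not separate them.

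All 9 genes were measured well above the counting floor, and none differed between farnesol and vehicle beyond the spread between libraries. The 9 fold changes were all above 1, from 1.02 for Tnnc2 to 1.37 for Tnnc1, and with p-values adjusted over 11674 genes (edgeR, quasi-likelihood) 0 of the 9 reached the threshold of 0.05. The slow gene made up 0.707% to 2.16% of the counts of each troponin pair, and this share did not separate the groups. The largest departures belonged to libraries rather than to groups: the 3 slow troponins were all highest in farnesol replicate 2, and 8 of the 9 genes were lowest in vehicle replicate 3.

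The 250 bases before a RefSeq start of each slow troponin gene are shown, with the fast troponin C gene for comparison. They are from build GRCm38.p6 and run 5′ to 3′ on the strand of the gene. Start sites were listed for 7 of the 9 genes, and not for Tnnt3 and Tnni2. For Tnni1, with 2 listed starts, the upstream one is shown. Its window lies inside the annotated gene, which begins at 135783033, so it is not the sequence before the whole gene. Capitals mark an E-box (CANNTG, the site type of myogenic bHLH factors) or an M-CAT element (CATTCC, the site type of TEAD factors), searched on both strands.
Tnnt1 (chr7:4515976-4516225, minus strand): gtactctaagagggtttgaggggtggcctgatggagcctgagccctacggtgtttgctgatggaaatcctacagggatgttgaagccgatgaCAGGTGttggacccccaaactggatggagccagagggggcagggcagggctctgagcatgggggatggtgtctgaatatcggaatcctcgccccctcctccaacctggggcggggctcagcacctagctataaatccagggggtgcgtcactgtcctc
Tnni1 (chr1:135799171-135799420, plus strand): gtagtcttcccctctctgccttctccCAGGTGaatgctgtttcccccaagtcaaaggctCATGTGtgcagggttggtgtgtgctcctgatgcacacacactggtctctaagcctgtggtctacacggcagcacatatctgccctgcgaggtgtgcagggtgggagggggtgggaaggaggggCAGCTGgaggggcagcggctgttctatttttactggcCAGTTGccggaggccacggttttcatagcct
Tnnc1 (chr14:31208062-31208311, plus strand): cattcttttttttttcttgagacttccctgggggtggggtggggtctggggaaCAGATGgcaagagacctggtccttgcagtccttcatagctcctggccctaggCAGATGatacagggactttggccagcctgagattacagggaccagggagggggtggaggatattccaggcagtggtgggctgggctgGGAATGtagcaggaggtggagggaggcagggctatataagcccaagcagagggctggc
Tnnc2 (chr2:164779735-164779984, minus strand): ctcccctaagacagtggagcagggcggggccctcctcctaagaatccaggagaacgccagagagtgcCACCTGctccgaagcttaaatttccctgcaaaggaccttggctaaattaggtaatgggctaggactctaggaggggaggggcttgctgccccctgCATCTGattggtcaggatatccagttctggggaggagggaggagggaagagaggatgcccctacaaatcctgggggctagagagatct

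These windows held 1 E-box for Tnnt1, 4 for Tnni1, 2 for Tnnc1 and 2 for Tnnc2. An E-box stood in 66.2% of the 32851 windows of the same length in the table. An M-CAT element was found in the windows of Tnnc1 and Tpm1, and in 12.6% of all windows. The consensus of MEF2, searched on both strands, was in none of the windows of these genes and in 2.92% of all windows. No marked site overlapped another. A match is a run of letters, and no binding was measured.

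Total counts ran from 9895700 to 12707751 per library, and the 9 genes together took 5.20% (vehicle replicate 3) to 7.92% (farnesol replicate 1) of them. The 45S ribosomal RNA precursor Rn45s took 4.97% of farnesol replicate 1 and 9.92% to 15.4% of the other libraries. The muscle genes Acta1 and Ckm were abundant in every library, at 25502 to 44509 CPM (counts relative to TMM-scaled library size) and 8970 to 13218 CPM. Of 6 cardiac markers, Myh6 was at 44.1 to 74.5 CPM and Tnnt2 at 2.20 to 4.85 CPM, Nppa had 0 to 8 counts, Tnni3 0 to 5 and Nppb 0 to 1, and Mybpc3 was at 0 in all 6 libraries. Together they summed to 49.5 to 66.7 CPM in vehicle and 46.7 to 79.8 CPM in farnesol libraries. Smooth muscle markers, 7 in all, summed to 123 to 163 CPM in vehicle and 107 to 164 CPM in farnesol libraries. Macrophage markers, 6 in all, were each highest in vehicle replicate 3, where they summed to 169 CPM against 69.8 CPM in the lowest vehicle library and 89.1 to 121 CPM in farnesol libraries. The 6 adipocyte markers were each highest in farnesol replicate 1 and summed to 97.1 to 186 CPM in vehicle and 180 to 266 CPM in farnesol libraries. Of these, 4 had farnesol values above all vehicle values, as 4.75% of all genes tested did. Their median log2 fold change was 0.87 over the 6 markers, and 0 passed the adjusted threshold. The 5 erythroid markers summed to 3451 to 5591 CPM in vehicle and 5388 to 9595 CPM in farnesol libraries. The part of these cells and of Rn45s in the values below was not tested. In whole muscle, fewer fibres of a type and less RNA per fibre cannot be told apart.

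Levels of different genes were compared as CPM per kilobase of the longest coding transcript. Tags near the 3′ end may not grow in number with transcript length, which was not tested, so the order in plain CPM is given too. In vehicle libraries fast troponin C, Tnnc2, stood highest at 23417 ± 4506 CPM per kilobase (SD, n = 3), before Tnni2 at 13422 ± 1469, Tnnt3 at 10958 ± 2343 and Tpm1 at 6386 ± 1835. Tpm2 followed at 1140 ± 262. The slow forms were far lower on this scale, with Tnnt1 at 230 ± 53.2, Tnnc1 at 183 ± 28.2, Tnni1 at 89.5 ± 20.8 and Tpm3 at 83.2 ± 7.51 CPM per kilobase. In plain CPM the order of the most abundant genes in vehicle libraries turned, to Tpm1 at 18457 ± 5304, Tnnc2 at 16392 ± 3154, Tnnt3 at 11824 ± 2528 and Tnni2 at 10308 ± 1128 (SD, n = 3). On the scale per kilobase, the neighbours Tnnt1 and Tnnc1, and Tnni1 and Tpm3, lay within 1 SD of each other. By mean CPM, Tpm1 was the 5th and Tnnc2 the 6th most abundant of all genes tested.

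**Figure D1:**
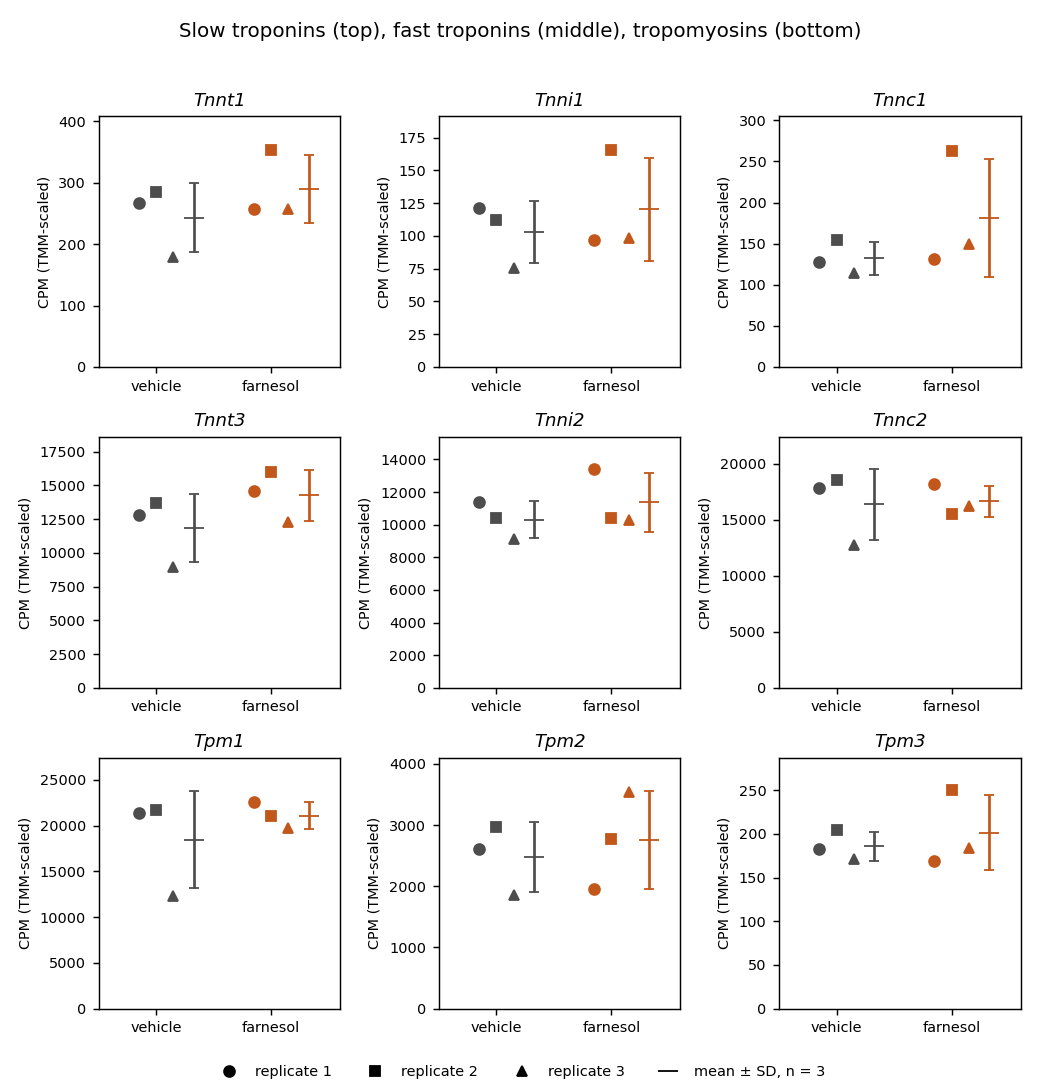
TMM-scaled CPM of the 9 genes in each library (y axes start at 0; marker shape gives the replicate number; bars are the group mean ± SD, n = 3). The 3 slow troponins in the top row are highest in farnesol replicate 2 (orange squares), and vehicle replicate 3 (grey triangles) is the lowest library for every gene but Tpm3.

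Slow troponin T, Tnnt1 (chromosome 7, 4504569 to 4515975, GRCm38), was at 266, 284 and 179 CPM in vehicle replicates 1 to 3 and at 257, 354 and 258 CPM in farnesol replicates 1 to 3. Farnesol replicate 2 was the highest and vehicle replicate 3 the lowest, and the other 4 libraries lay within the overlap of the groups. The fold change was 1.19 (95% interval 0.920 to 1.54, edgeR adjusted p = 0.999989).

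Slow troponin I, Tnni1 (chromosome 1, 135783033 to 135810989), was at 121, 112 and 75.8 CPM in vehicle and at 96.8, 166 and 98.6 CPM in farnesol libraries. Apart from farnesol replicate 2, the farnesol values lay between the vehicle values. Its fold change was 1.17 (0.851 to 1.61), and the log2 fold change of 0.23 became −0.08 without farnesol replicate 2.

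Slow troponin C, Tnnc1 (chromosome 14, 31208312 to 31211729), had the largest fold change of the 9, at 1.37 (0.984 to 1.92, edgeR unadjusted p = 0.0604). It was at 127, 154 and 114 CPM in vehicle and at 131, 263 and 149 CPM in farnesol libraries. Farnesol replicates 1 and 3 fell inside the vehicle range, and the log2 fold change of 0.46 was 0.09 without farnesol replicate 2. The farnesol values rest on 1448 to 3146 counts.

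Fast troponin T, Tnnt3 (chromosome 7, 142498771 to 142516213), was at 12799, 13719 and 8953 CPM in vehicle and at 14566, 15986 and 12260 CPM in farnesol libraries. Farnesol replicates 1 and 2 were above every vehicle library, and farnesol replicate 3 was not. The fold change was 1.21 (0.910 to 1.60). The noncoding gene Prr33 overlaps Tnnt3 in the annotation and held 1094 to 1423 counts, against at least 105643 for Tnnt3.

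Fast troponin I, Tnni2 (chromosome 7, 142441816 to 142444410), was at 11395, 10385 and 9143 CPM in vehicle and at 13440, 10400 and 10267 CPM in farnesol libraries, with farnesol replicate 1 alone above the vehicle range. Its fold change was 1.10 (0.847 to 1.44). Fast troponin C, Tnnc2 (chromosome 2, 164777161 to 164779734), was at 17858, 18547 and 12771 CPM in vehicle and at 18186, 15548 and 16204 CPM in farnesol libraries. All farnesol values of Tnnc2 lay inside the vehicle range, at a fold of 1.02 (0.770 to 1.34).

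Tpm1, the fast alpha-tropomyosin (chromosome 9, 67022590 to 67049672), was at 21380, 21656 and 12335 CPM in vehicle and at 22582, 21011 and 19691 CPM in farnesol libraries. The 2 groups differed mainly through vehicle replicate 3: the fold change was 1.14 (0.843 to 1.55), and the log2 fold change of 0.19 became −0.03 without that library.

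Beta-tropomyosin, Tpm2 (chromosome 4, 43513726 to 43523583), was at 2609, 2972 and 1855 CPM in vehicle and at 1954, 2777 and 3546 CPM in farnesol libraries. Farnesol replicate 3 was the highest library and farnesol replicate 1 the second lowest, at a fold of 1.11 (0.821 to 1.51). Slow alpha-tropomyosin, Tpm3 (chromosome 3, 90072651 to 90100902), was at 183, 204 and 171 CPM in vehicle and at 169, 250 and 184 CPM in farnesol libraries. Like the slow troponins, Tpm3 was highest in farnesol replicate 2, and its fold change was 1.08 (0.858 to 1.37).

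Read together, the 9 genes had a median log2 fold change of 0.19, against −0.01 over all genes tested. Of all genes, 0% passed the adjusted threshold, 3.01% had an unadjusted p under 0.05 and 8.82% had groups with no overlap. Among the 9, 0 passed, 0 had an unadjusted p under 0.05 in the main edgeR fit and 0 had groups that did not overlap. The log2 fold change was above 0 for 9 of 9 genes, and for 49.1% of all genes. That count rested on single libraries: it was 6 of 9 without vehicle replicate 3, at a median of 0.06, and 7 of 9 without farnesol replicate 2, at a median of 0.09. DESeq2 and limma-voom likewise called 0 genes in the whole table. The biological coefficient of variation of the 9 genes in edgeR was 15.3% to 20.2%, against a median of 23.9% over all genes. That median includes genes of far lower CPM, which varied more, and genes of like level were not compared.

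**Figure D2:**
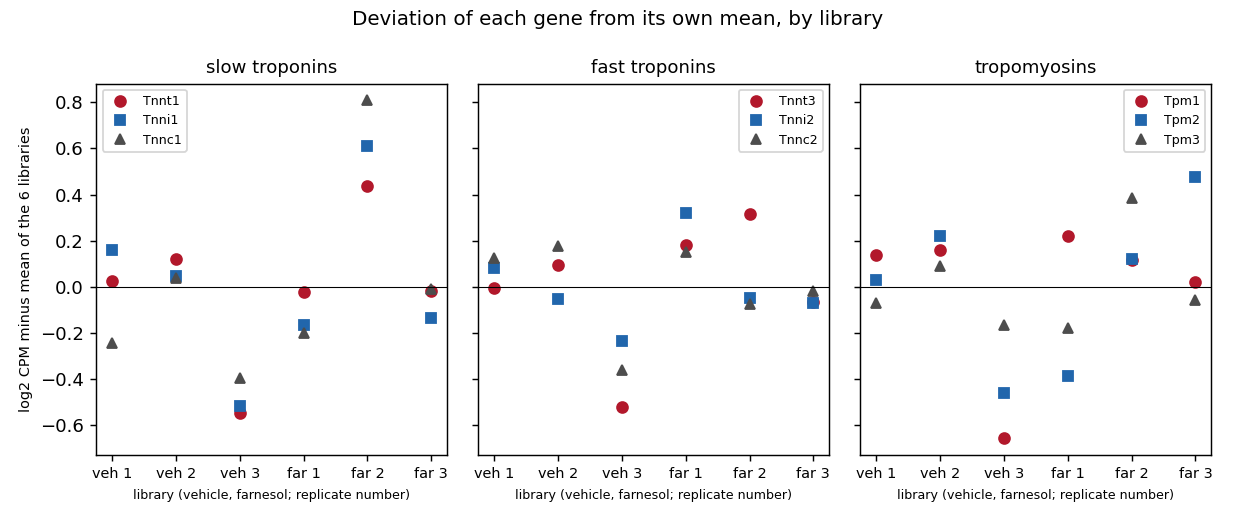
log2 CPM of each gene minus its mean over the 6 libraries (y axis), for slow troponins, fast troponins and tropomyosins; each point is 1 gene in 1 library. The 3 slow troponins lie 0.44 to 0.81 above their means in farnesol replicate 2 (far 2) and 0.39 to 0.55 below in vehicle replicate 3 (veh 3).

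The slow troponins shared a pattern over the libraries. In farnesol replicate 2 they lay on average 0.62 above their means on the log2 scale, and in vehicle replicate 3 at −0.48, while the other 4 libraries ranged from −0.13 to 0.07. The fast troponins were also low in vehicle replicate 3, at −0.37, but in farnesol replicate 2 they averaged 0.06, and their highest library was farnesol replicate 1 at 0.22. Within the fast set Tnnt3 departed from its partners, at 0.32 in farnesol replicate 2 where Tnni2 and Tnnc2 stood at −0.05 and −0.08. Across the 6 libraries Pearson's r of log2 CPM was 0.84 to 0.94 between slow troponins, and 0.96 between Tnnc1 and Tpm3. Some pairs outside the slow set were as close, with 0.94 between Tnnt1 and Tnnt3 and 0.92 between Tnnc2 and Tpm1. Tnnt1 and Tpm1 stood slightly lower, at 0.82. Others were far lower, with 0.06 between Tnnc1 and Tnnc2, and −0.22 between Tnni2 and Tpm3 as the lowest. All genes of a library share its depth and composition, so these values are a description only.

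The ratio of slow to fast counts within a library needs no scaling between libraries. For troponin T, Tnnt1 stood at 20.8, 20.7 and 20.0 counts per 1000 of Tnnt3 in vehicle and at 17.6, 22.1 and 21.0 in farnesol libraries. The vehicle values were nearly constant, and the farnesol values lay on both sides of them, with group means of 20.5 ± 0.453 and 20.3 ± 2.34 (SD, n = 3). The log2 difference was −0.02 (exact two-sided permutation p = 1).

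For troponin I, Tnni1 stood at 10.6, 10.8 and 8.30 per 1000 counts of Tnni2 in vehicle and at 7.20, 15.9 and 9.61 in farnesol libraries. The lowest and the highest value were both in the farnesol group. The log2 difference was 0.07 (exact two-sided permutation p = 0.9) and changed to −0.24 without farnesol replicate 2.

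For troponin C, Tnnc1 stood at 7.12, 8.32 and 8.97 per 1000 counts of Tnnc2 in vehicle and at 7.20, 16.9 and 9.22 in farnesol libraries. Farnesol replicate 2 stood far above the other 5 libraries, which ran from 7.12 to 9.22. The group means were 8.13 ± 0.937 and 11.1 ± 5.14, with a log2 difference of 0.36 (exact two-sided permutation p = 0.4) that was 0.01 without farnesol replicate 2.

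For the alpha-tropomyosins, Tpm3 stood at 8.54, 9.42 and 13.9 per 1000 counts of Tpm1 in vehicle and at 7.49, 11.9 and 9.36 in farnesol libraries. Here vehicle replicate 3 was highest, where Tpm1 was low, and the log2 difference was −0.14 (exact two-sided permutation p = 0.6). Adjusted over the 4 ratios tested, every p was 1, and 3 against 3 libraries allow no p below 0.1. No ratio of the 4 separated the groups. Summed over subunits, slow troponins stood at 12.2, 12.9 and 12.0 per 1000 fast counts in vehicle and at 10.5, 18.7 and 13.1 in farnesol libraries, which is given as a description with no test.

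**Figure D3:**
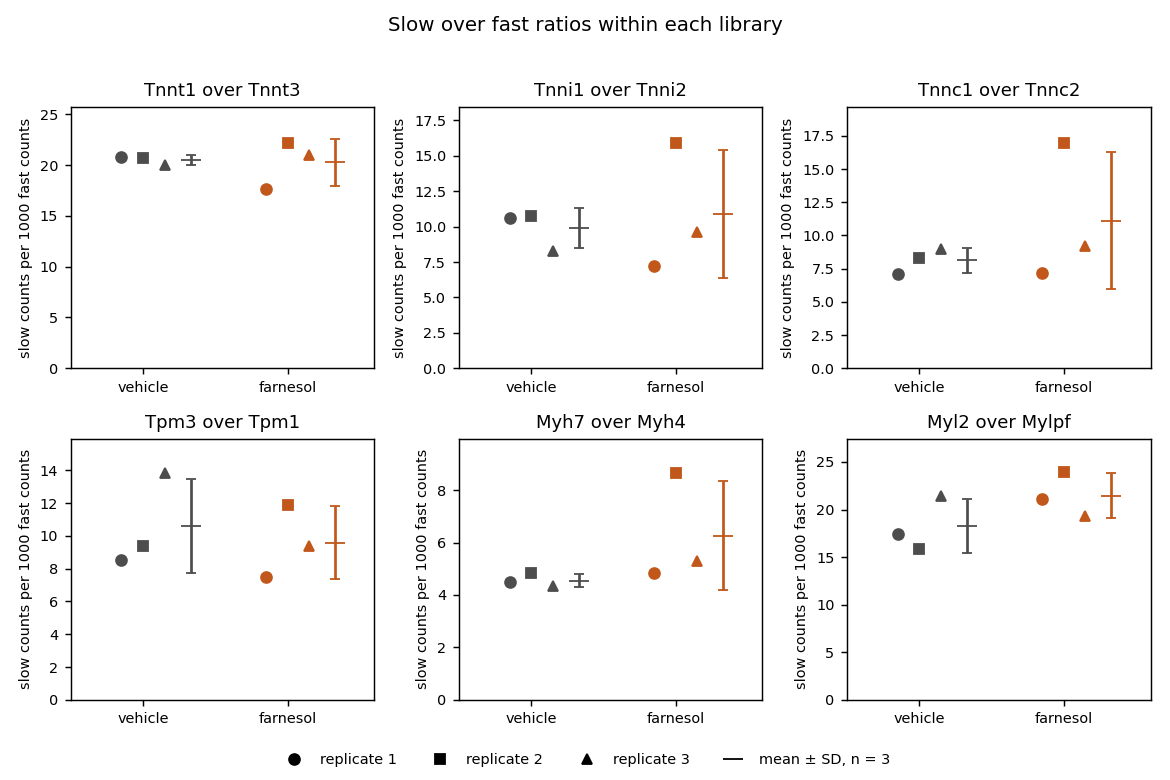
Slow over fast ratios within each library, as slow counts per 1000 fast counts (y axes start at 0; marker shape gives the replicate number; bars are the group mean ± SD, n = 3). Farnesol replicate 2 is the highest library in every panel but Tpm3 over Tpm1, where vehicle replicate 3 is highest at 13.9.

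As shares, Tnnt1 made up 1.73% (95% Clopper-Pearson interval 1.67% to 1.80%) of troponin T counts in farnesol replicate 1 and 2.16% (2.10% to 2.23%) in farnesol replicate 2, the lowest and highest of the 6 libraries. Tnni1 took 0.715% to 1.57% of troponin I counts and Tnnc1 0.707% to 1.67% of troponin C counts. The intervals cover counting error only. Some libraries of the same group differed by more than that, but the intervals of Tnnt1 in the vehicle libraries overlapped. Per kilobase the ranges were 1.77% to 2.20%, 0.479% to 1.05% and 0.686% to 1.62%.

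The balance of the 3 troponin subunits was read as shares of their summed level. Per kilobase, troponin C genes gave 48.7% ± 1.36 (SD, n = 3) of the troponin total in vehicle and 45.9% ± 2.19 in farnesol libraries, troponin I genes 28.2% ± 2.64 and 28.3% ± 2.04, and troponin T genes 23.0% ± 1.28 and 25.8% ± 3.19. Farnesol replicate 2 again stood apart, with 29.5% from troponin T against 21.8% to 24.4% in the other libraries. Among tropomyosins Tpm1 gave 79.9% to 88.9%, Tpm2 10.2% to 19.1% and Tpm3 0.862% to 1.47% of the total per kilobase. Both ends of the Tpm1 and Tpm2 ranges were farnesol libraries. The troponin shares moved with the scale: without division by length, a choice made after seeing the data, troponin T genes gave 30.8% ± 1.59, troponin I genes 27.0% ± 2.61 and troponin C genes 42.3% ± 1.02 (SD, n = 3) in vehicle libraries, which turned the order of T and I. In farnesol libraries these were 34.0% ± 3.71, 26.7% ± 2.15 and 39.3% ± 2.33, and farnesol replicate 2 was again highest for troponin T, at 38.3%.

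**Figure D4:**
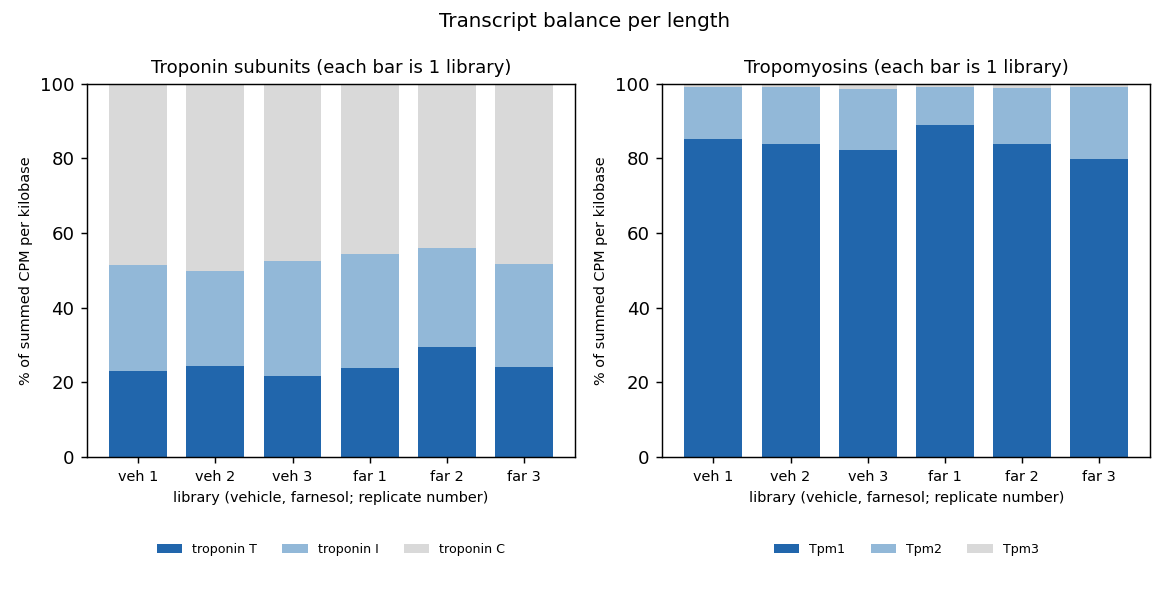
Share of each troponin subunit (slow and fast genes summed) and of each tropomyosin in the summed CPM per kilobase (y axis, %), 1 bar per library. Troponin C takes 43.9% to 50.1% of the troponin total and Tpm1 79.9% to 88.9% of the tropomyosin total.

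Other genes of the 2 fibre types were set beside the troponins. Of 18 other slow fibre genes, 0 passed over all genes, 14 had a fold above 1 and 4 below, and the median log2 fold change was 0.21, which fell to 0.07 without farnesol replicate 2. Farnesol replicate 2 was the highest library for 9 of these 18 genes, and for 14.7% of all genes tested. Slow myosin heavy chain, Myh7, was at 268, 300 and 184 CPM in vehicle and at 203, 465 and 275 CPM in farnesol libraries, the same order of high and low extremes as in Tnnt1. The slow light chain Myl2 had a fold of 1.35 (1.05 to 1.72) and Sln, which inhibits the calcium pump, a fold of 1.95 (1.19 to 3.21), with edgeR unadjusted p of 0.0193 and 0.0122 that did not pass over all genes. Of the list, Fhl1 and Myoz2 had farnesol values above all vehicle values, as 4.75% of all genes did, at folds of 1.23 (0.995 to 1.52) and 1.19 (0.957 to 1.49). Casq2, the slow and cardiac calsequestrin, had a fold of 1.24 (0.905 to 1.70) and Tecrl one of 2.76 (0.810 to 9.42).

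Of 16 other fast fibre genes, 0 passed, 10 had a fold above 1 and 6 below, and the median log2 fold change was 0.04. Vehicle replicate 3 was the lowest library for 11 of these 16 genes, against 16.4% of all genes tested. The calcium buffer Pvalb had a fold of 1.21 (0.864 to 1.70), the light chain kinase Mylk2 of 0.893 (0.706 to 1.13), and the fast heavy chain Myh4 of 0.897 (0.661 to 1.22). Myl1, Mybpc2 and Myoz1 had folds of 1.14 (0.823 to 1.57), 0.902 (0.687 to 1.18) and 1.09 (0.860 to 1.39).

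The within-library ratio of Myh7 to Myh4 was 4.49, 4.82 and 4.33 per 1000 in vehicle and 4.82, 8.64 and 5.31 in farnesol libraries. The lowest farnesol value exceeded the highest vehicle value only in the digits not shown, and the group difference of 0.41 on the log2 scale was 0.16 without farnesol replicate 2. For Myl2 over Mylpf the values were 17.4, 15.9 and 21.4 in vehicle and 21.1, 24.0 and 19.3 in farnesol libraries. These groups overlapped, at a log2 difference of 0.24. The groups also overlapped for Atp2a2 over Atp2a1, Casq2 over Casq1 and Myl3 over Myl1, at log2 differences of 0.23, 0.13 and −0.05. Without farnesol replicate 2 the differences of these last ratios were 0.13, −0.13 and −0.24.

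**Figure D5:**
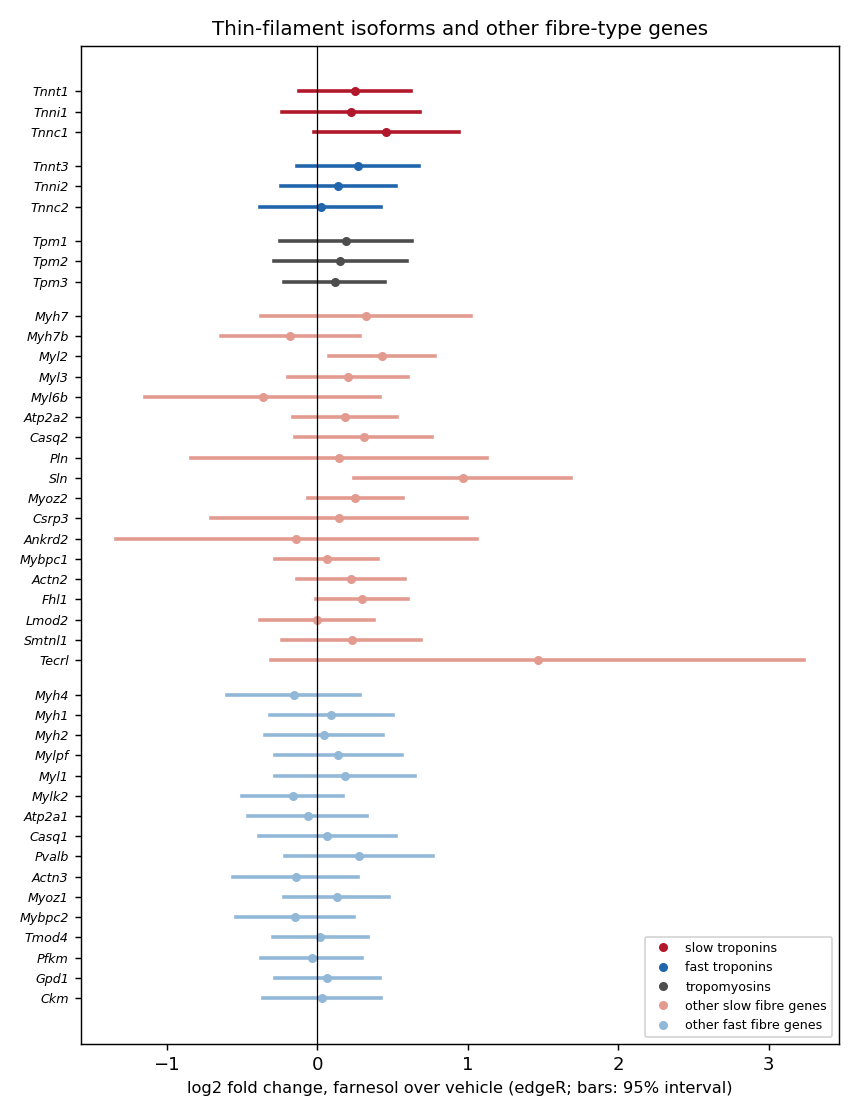
log2 fold change of farnesol over vehicle with its 95% interval in edgeR (x axis) for the 9 genes and for other genes of slow and fast fibres (y axis). The intervals of all 9 genes include 0, and those of Myl2 and Sln, which did not pass over all genes, do not.

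Of 21 partners of the thin filament, 19 had enough counts to be tested, 10 with a fold above 1 and 9 below, at a median log2 fold change of 0.01, and 0 passed. Skeletal actin, Acta1, had a fold of 1.04 (0.764 to 1.42), nebulin, Neb, 0.914 (0.696 to 1.20), and the thin filament stabiliser Lmod3 1.12 (0.840 to 1.50). Klhl40, which protects nebulin and Lmod3, had a fold of 1.14 (0.904 to 1.44) and the actin-severing Cfl2 1.12 (0.885 to 1.41). The remaining genes of smallest unadjusted p were Capza1 at 1.40 (0.784 to 2.52), Kbtbd13 at 0.812 (0.491 to 1.34) and Xirp2 at 0.912 (0.707 to 1.18). The cardiac troponin T gene Tnnt2 was at 2.20 to 4.85 CPM, and cardiac troponin I, Tnni3, had 0 counts in 4 libraries and 5 and 3 counts in farnesol replicates 2 and 3. With 3 counts as the floor, a count of 0 would allow up to 0.303 CPM in the shallowest library, on total counts without TMM scaling.

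Among 29 regulators of fibre type, 28 were tested, 11 with a fold above 1 and 17 below, at a median log2 fold change of −0.04, and 0 passed. Eya1, a transcriptional cofactor of the fast programme, had a fold of 0.742 (0.514 to 1.07). Sox6, a repressor of slow genes, stood at 1.01 (0.812 to 1.26), and the activator Ppargc1a at 1.03 (0.780 to 1.37). Esrrg, a receptor of oxidative fibres, had a fold of 1.31 (0.903 to 1.91), Gtf2ird1 1.31 (0.797 to 2.17), Hdac4 0.842 (0.598 to 1.19), Nfatc3 0.902 (0.707 to 1.15) and Vgll2 0.907 (0.718 to 1.14).

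The genes whose log2 CPM followed the mean of the 3 slow troponins most closely over the 6 libraries were Btf3 (Pearson's r = 0.993), Trmt1 (0.992), Eno1b (0.978), Lrrc14b (0.965), Myh7 (0.964) and Mettl7b (0.956), and each was highest in farnesol replicate 2. For the mean of the 3 fast troponins they were Nfix (r = 0.984), Mrps23 (0.983), Slc44a2 (0.982), Lamtor4 (0.979), Ndufaf1 (0.979) and Cisd3 (0.978), each highest in farnesol replicate 1. These are descriptions over 6 libraries among 6025 genes of at least 10 CPM, of which 34 reached an r of 0.9 with the slow mean and 95 with the fast mean.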

How the data were processed

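RNA from gastrocnemius muscle was made into 3′ tag libraries with a Lexogen Quant-Seq kit from 500 ng of total RNA, per the labels' protocols. The deposited values are raw counts of reads by gene symbol, in a table for each library. Per the submitters' processing notes, Bowtie2, bedtools and mm10 were used. Their versions, the annotation, the strand setting and the treatment of multiply mapped reads were not given in the sources used here. Tags near the 3′ end merge isoforms with a shared end.

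Each table held 23282 features under 23238 symbols, and counts of the 35 symbols on more than 1 line were summed. Libraries were grouped by title (3 vehicle, 3 farnesol). The test was edgeR 4.0.16 (filterByExpr, TMM, robust glmQLFit, glmQLFTest), with Benjamini-Hochberg adjustment over the 11674 genes left by the filter, which all 9 genes passed. The test was also run on simulated counts with larger fold changes than those of the 9 genes. That run does not show what the test could detect at folds of their size. Intervals are 95% on the t distribution of the fit. Ratios were compared by exact two-sided permutation over libraries (scipy 1.17.1). CPM use TMM-scaled library sizes; lengths are those of the longest coding transcript in GENCODE vM21 (GRCm38, the same build as mm10). Promoter windows and gene positions are from RefSeq GRCm38.p6.

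The genes and lists were chosen with earlier results of these data known. Named were the 9 genes, genes past the threshold and otherwise up to 6 of smallest unadjusted p in each list, and the 6 genes most like the slow and the fast troponin mean. Acta1, Neb, Tnnt2, Tnni3, Sox6, Ppargc1a, Myh7 and other list members named beyond these were chosen after their values were seen.

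Same-numbered libraries did not deviate together: across genes, the correlation of deviations from the group means was 0.04, 0.06 and −0.02, so the numbers were not taken as pairs. Alternatives were DESeq2 1.42.0, its size factors, limma-voom 3.58.1, other filters, Rn45s left out, a replicate block and each library left out. A count of 0 allows 3 counts, or 0.236 to 0.303 CPM on total counts without TMM scaling, and covers counting error only.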

Additional observations from a re-analysis of the deposited data

How the results depend on the processing

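Over 13 alternatives, 110 of 117 fold changes of the 9 genes kept their direction, 7 reversed and 0 passed the threshold; all 7 came from leaving out a library. Without vehicle replicate 3 the log2 fold changes were −0.13 for Tnnc2, −0.0286 for Tpm1 and −0.02 for Tpm2. Without farnesol replicate 2 they were −0.0757 for Tnni1 and −0.0721 for Tpm3, without farnesol replicate 1 −0.05 for Tnnc2, and without farnesol replicate 3 −0.0705 for Tpm2. The cause was not tested. With 1 library left out, the log2 difference of the slow over fast ratio ran from −0.0893 to 0.0742 for troponin T, from −0.24 to 0.33 for troponin I, from 0.01 to 0.63 for troponin C and from −0.31 to 0.0709 for Tpm3 over Tpm1, and that of the summed troponin ratio from −0.0783 to 0.34. Of these, troponin T turned to 0.0742 without farnesol replicate 1, troponin I to −0.05 without vehicle replicate 3 and −0.24 without farnesol replicate 2, Tpm3 over Tpm1 to 0.0709 without vehicle replicate 3 and 0.03 without farnesol replicate 1, and the summed ratio to −0.0783 without farnesol replicate 2. With the replicate block the exact p of the 4 ratios was 1, 0.75, 0.25 and 0.75, at unchanged differences of −0.02, 0.07, 0.36 and −0.14, where 3 pairs allow no p below 0.25. In edgeR the replicate block called 0 genes and left 9 of 9 folds above 1. The unadjusted p of Tnnc1 fell under 0.05 in some alternatives, such as DESeq2 (Wald test, 0.0446) and edgeR without a filter (0.0047). In others it did not, such as limma-voom (0.0665) and edgeR without farnesol replicate 2 (0.640). Over the whole table the count of called genes moved from 0 to 13 without a filter, and ran from 0 to 3 with 1 library left out, none of them among the 9. The vehicle mean of the slow share per kilobase was 0.657% in place of 0.980% for Tnni1 and 1.35% in place of 1.05% for Tpm3. For the 6 genes most like the slow troponins the median rank correlation was 0.943 in place of a Pearson's r of 0.971. With 1 library left out, the log2 fold changes ran from −0.0757 to 0.36 for Tnni1, −0.13 to 0.12 for Tnnc2, −0.0286 to 0.32 for Tpm1, −0.0705 to 0.35 for Tpm2 and −0.0721 to 0.23 for Tpm3. The 0 to 3 calls were 3 without vehicle replicate 2.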

Other observations

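Among the ratios of every pair of the 9 genes, 3 of 36 (8.33%) did not overlap between the groups. Of all genes tested, 8.82% had levels that did not overlap, which is a measure of single genes and not of ratios. No share for ratios of other gene pairs is given here, so these shares are not a like comparison. Tnnt3 over Tnnc2, both fast troponins, was 0.717, 0.740 and 0.701 in vehicle and 0.801, 1.03 and 0.757 in farnesol libraries. Tnnc1 over Tpm3, both slow forms, was 0.696, 0.757 and 0.670 in vehicle and 0.774, 1.05 and 0.811 in farnesol libraries. Tnnc2 over Tpm1, both fast forms, was 0.835, 0.856 and 1.04 in vehicle and 0.805, 0.740 and 0.823 in farnesol libraries. These pairs were noticed after their values were seen, and the 36 ratios share genes and libraries.

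Counts were listed for embryonic and perinatal myosins, with Myh3 at 88.8 to 129 CPM in vehicle and 62.8 to 143 CPM in farnesol libraries. Myh8 was at 959 to 1579 and 727 to 1476 CPM. Whether reads of the more abundant adult myosin genes added to these counts was not tested. Farnesol replicate 1 was the lowest library for both Myh3 and Myh8, and also for the adult fast heavy chains Myh4 and Myh1.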
